A study of Mus musculus with 40 samples.

Results

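The cytosolic ribosomal protein genes encode the proteins of the ribosome that translates nuclear-encoded mRNAs. They were taken by symbol from the deposited gene table, as every protein-coding gene named Rpl or Rps with a number and an optional further letter or digit, together with Rplp0, Rplp1, Rplp2 and Rpsa; the S6 kinase genes were left out. The rule used no measured value and gave 83 of 49585 gene rows, 51 of the large subunit and 32 of the small subunit. A stricter reading of the rule, without Rpl22l1, Rps3a1 and Rpl7l1, leaves 80. The measurements are Smart-seq2 RNA-seq counts of sorted bone marrow populations. Smart-seq2 is a full-length cDNA method that carries no molecular identifiers and does not mark the strand.

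The mutant mice, called Mbd3del, had both Mbd3 alleles deleted (genotype Mbd3_Del/Del), and control mice carried Mbd3_Flox/Flox alleles. There were 5 mice of each genotype, all of the C57BL6/129Ola strain and aged 46 to 51 days. Mbd3 belongs to the NuRD chromatin remodelling complex, and how the gene was deleted is not stated in the labels. Each mouse gave 4 sorted populations: haematopoietic stem cells (HSC), lymphoid-primed multipotent progenitors (LMPP), all-lymphoid progenitors (ALP, which carry the interleukin 7 receptor and lack Ly6D) and B-biased progenitors (BLP, which carry both). HSC were gated by EPCR, CD150 and CD45 without CD48, and the progenitors as Flt3-high cells within the Sca-1+ c-Kit+ gate, with LMPP lacking the interleukin 7 receptor. This made 8 groups of 5 libraries and 40 libraries in all. The sample labels give 150 cells for each HSC pool and 100 cells for the others, whereas the series design text has the numbers swapped. Cell number and population cannot be told apart. Pools of different cells also cannot tell less RNA per cell from fewer expressing cells. The LMPP libraries of Mbd3del mice are titled as floxed, in conflict with their genotype labels, which give the deletion.

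The ribosome has a small subunit, which reads the mRNA, and a large subunit, which joins the amino acids. Most of its proteins are needed in equal number, and their mRNAs in mammals begin with a run of pyrimidines, the TOP motif, through which mTOR signalling adjusts their translation together. Haematopoietic cells are sensitive to the supply of these proteins: mutations of RPS19 and other members in humans cause Diamond-Blackfan anaemia, and in mice loss of Rpl22 impairs the development of lymphocytes. Free Rpl5 and Rpl11 bind Mdm2 and so link the ribosome to p53. Because these mRNAs are short and abundant, mammalian genomes also carry many processed pseudogenes copied from them.

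Mbd3 itself was at 0 to 3.24 CPM, the count scaled to a library's gene counts, in the 20 Mbd3del libraries, against 8.18 to 165 CPM in the 20 control libraries, so the ranges did not overlap. Gene counts per library ran from 2974305 to 9082610, and 3 counts corresponded to 0.330 to 1.01 CPM. Procr, which encodes EPCR, averaged 160 CPM in Mbd3del HSC and 126 CPM in control HSC and was under 2 CPM in ALP and BLP of both genotypes. Ly6d averaged 9902 CPM in Mbd3del BLP and 7785 CPM in control BLP, against 269 CPM in Mbd3del ALP and 85.5 CPM in control ALP. Summed erythroid markers, with 8 genes on the list, were at most 87.7 CPM in any library, and macrophage markers, with 7 genes, at most 70.7 CPM. Summed neutrophil markers, with 8 genes, had medians of 16.1, 778, 736 and 212 CPM in HSC, LMPP, ALP and BLP of Mbd3del mice and 22.6, 660.1, 427 and 148 CPM in those of control mice. Most of the sum in LMPP, ALP and BLP was Mpo, and Ltf was at 0 in 7 of the 8 groups. Control mouse10372 and mouse10381 had Y-linked or Xist transcripts that go against their labelled sex in all 4 populations, so results are also given without them where they move.

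The deposited levels of single ribosomal protein genes differed by orders of magnitude. Those with every 50-base stretch of coding sequence also found in another annotated gene had the lower median, apart from exceptions in both directions. Of the 83 genes, 78 had at least 1 other annotated gene with 90% identity over 80% of their coding sequence, with a median of 8 such copies and at most 77, for Rpl21. Of the copies found, 942 were annotated as processed pseudogenes. The share of each coding sequence that cannot be placed by 50 bases alone was measured as the percentage of its 50-base windows (50-mers) also present in another gene. Different windows may match different genes, and a gene annotated at the same place counts as another, as Gm28037 does for Rpl24. All 50-mers were shared for 29 genes, and levels of those genes ran from 0.0055 to 209 CPM per kb of exon with a median of 6.23. The 15 genes with under 50% shared had a median of 404 CPM per kb. The coding starts of Rps27 and Rps12 with their copies show how little separates such sequences. They are the first 60 coding bases, from GENCODE M21 transcripts on GRCm38, 5′ to 3′, and capitals mark bases that differ from the first line of each set.
Rps27: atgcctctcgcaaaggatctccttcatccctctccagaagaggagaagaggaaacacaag
Rps27rt: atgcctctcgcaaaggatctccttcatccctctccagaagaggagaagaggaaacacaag
Gm15531: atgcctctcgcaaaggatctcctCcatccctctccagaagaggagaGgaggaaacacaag
Rps27l: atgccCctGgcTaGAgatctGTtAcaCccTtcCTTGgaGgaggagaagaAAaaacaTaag
Rps12: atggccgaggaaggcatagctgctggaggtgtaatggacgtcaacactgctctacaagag
Rps12-ps3: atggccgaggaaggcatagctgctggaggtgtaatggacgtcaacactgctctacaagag
Rps27 (chr3:90212522-90213651, minus strand) and Rps27rt (chr9:114982366-114982739, minus strand) have the same 252 coding bases. The pseudogene Gm15531 (chr6:97890288-97890539) differs from them at 10 bases, and the paralogue Rps27l (chr9:66946086-66949516, plus strand) at 60. Rps12 (chr10:23785183-23787275) and Rps12-ps3 (chr19:59322290-59322783) are identical over all 396 coding bases.

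Over the 40 libraries Rps27 averaged 3.28 CPM per kb and Rps27l 547 CPM per kb. All of the Rps27 50-mers and 48.3% of those of Rps27l are found in another gene. Rps12, with 24 copies, was listed at 0.0112 CPM, and the rows of all its copies together at 0.441 CPM. A level near 0 for such a gene therefore cannot be told apart from reads left uncounted because they align to several places. Over the 83 genes the Spearman correlation between the shared percentage and the level per kb was -0.64, and it was -0.81 over the 80 genes other than the tissue-restricted paralogues Rpl3l, Rpl10l and Rpl39l. The points share their libraries. Among genes with all 50-mers shared, Rpl41 and Rpl38 were at 209 and 124 CPM per kb.

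**Figure D1:**
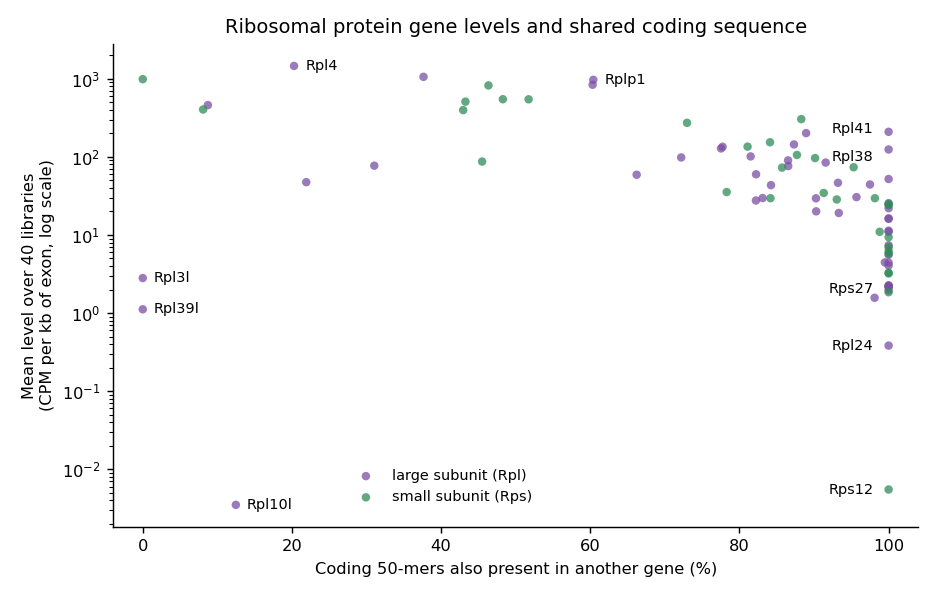
Each point is 1 of 83 ribosomal protein genes. The vertical axis gives the mean level over 40 libraries in CPM per kb of exon on a log scale, and the horizontal axis the percentage of its coding 50-mers also present in another gene; genes with all 50-mers shared span 0.0055 to 209 CPM per kb, and Rpl4 and Rplp1 lie at 1460 and 969.

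Among the genes with high levels per kb were Rpl4 at 1460, Rpl32 at 1058, Rplp1 at 969 and Rplp0 at 838 CPM per kb. Rpl4 and Rpl32 encode structural proteins of the large subunit, and Rplp0 and Rplp1 encode the lateral stalk, which recruits translation factors. The third stalk gene, Rplp2, was at 59.0 CPM per kb, with 66.2% of its 50-mers shared, against 60.4% for Rplp1. Levels per kb are divided by the joined length of all annotated exons, 2072 bases for Rplp2 and 499 for Rplp1. Before that division Rplp2 averaged 122 CPM and Rplp1 483 CPM, so the ranking per kb also depends on annotated length. Rps19 stood at 135, Rpl7 at 128 and Rps4x at 96.5 CPM per kb. The Mdm2-binding members Rpl5 and Rpl11 were at 2.23 and 1.96 CPM per kb, Rps6, the S6 kinase substrate, at 3.21 and Rpl10 at 2.15, each with all 50-mers shared. Rps27a, which encodes a ubiquitin fusion, was at 6.98, Rpl10a at 4.45, Rpsa, the laminin receptor, at 11.0, and Rps25 at 29.5 CPM per kb. At the low end without that sharing, the testis paralogue Rpl10l was at 0.0035 CPM per kb and Rpl39l at 1.12, against 76.2 CPM per kb for Rpl39. The 10 genes with the highest CPM held 62.2% of the summed level, so a summed share rests on few genes.

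Of the paralogue pair Rpl22 and Rpl22l1, which can take each other's place in the ribosome, Rpl22 averaged 284 ± 143 CPM in Mbd3del HSC and 185 ± 61.5 CPM in control HSC (SD, n = 5 each), and Rpl22l1 averaged 102 ± 11.7 CPM in Mbd3del HSC and 91.8 ± 24.8 CPM in control HSC. In BLP, Rpl22 averaged 148 ± 23.0 CPM in Mbd3del and 193 ± 17.8 CPM in control libraries. Rpl22l1 averaged 79.6 ± 19.5 CPM in Mbd3del BLP and 71.9 ± 18.4 CPM in control BLP. Rpl7l1, a paralogue of Rpl7 found with ribosome precursors, averaged 166 CPM over all libraries, at 47.4 CPM per kb. Rpl13a, whose protein also represses translation of inflammatory mRNAs when released, averaged 93.6 CPM.

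The 83 genes together took 1.37% to 3.11% of gene counts. In HSC the share was 1.90%, 1.66%, 2.53%, 2.25% and 2.69% in the 5 Mbd3del libraries, against 1.90%, 2.19%, 1.95%, 1.74% and 2.44% in the 5 control libraries. LMPP had 2.64%, 2.19%, 1.83%, 2.41% and 2.395% in Mbd3del libraries and 2.10%, 2.05%, 2.04%, 2.18% and 2.84% in control libraries. ALP had 2.33%, 2.09%, 2.24%, 1.78% and 2.11% in Mbd3del libraries and 2.62%, 2.06%, 3.11%, 2.20% and 2.14% in control libraries. The ranges of the genotypes overlapped in all 3 of these populations. In BLP the shares were 1.63%, 1.37%, 1.70%, 2.23% and 1.65% in Mbd3del and 1.998%, 1.97%, 1.48%, 1.95% and 1.96% in control libraries. BLP had the lowest mean share in both genotypes, at 1.72% ± 0.314 in Mbd3del and 1.87% ± 0.222 in control libraries (SD, n = 5 each), and its range overlapped that of every other population of the same genotype except control ALP and control LMPP. The control ALP library of mouse10372, at 3.11%, had 3363182 gene counts, the lowest of its group, and 15745 detected genes, the most of the 40 libraries.

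**Figure D2:**
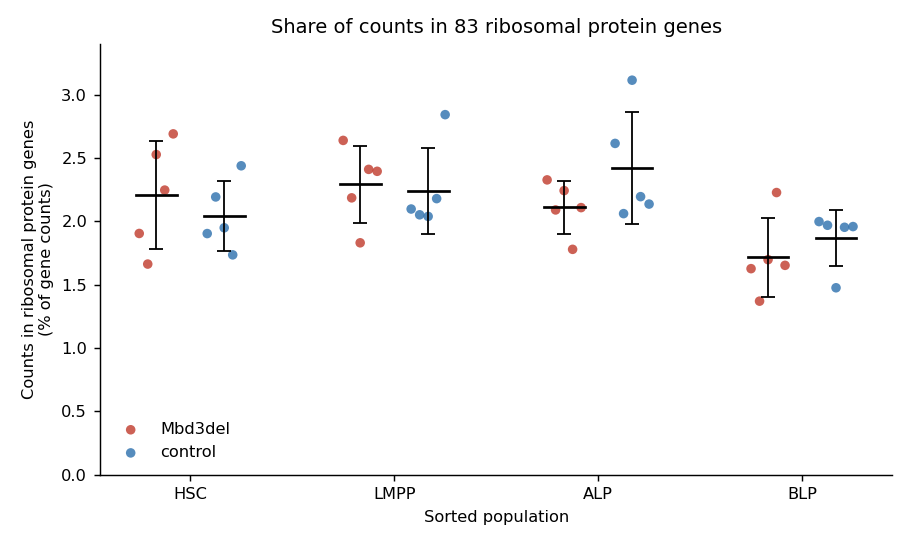
Share of gene counts in the 83 ribosomal protein genes (vertical axis, %) by sorted population, with Mbd3del (red) left of control (blue). Points are libraries, and bars give the mean and SD of 5; the groups overlap between genotypes in every population, and BLP is lowest at 1.72% in Mbd3del and 1.87% in control libraries.

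Deletion of Mbd3 gave no call among the ribosomal protein genes in any population. The comparison used edgeR's quasi-likelihood test with Benjamini-Hochberg adjustment over all genes tested, and a call is an adjusted p under 0.05. In HSC 0 of 76 tested genes were called, in LMPP 0 of 77, in ALP 0 of 78 and in BLP 0 of 78. Among all genes tested the percentage called was 0.0176% in HSC, 0.0183% in LMPP, 0.0182% in ALP and 0.0743% in BLP, so the absence of calls did not set these genes apart. An unadjusted p under 0.05 was reached by 0 of them in HSC, LMPP and ALP and by 2 in BLP, and DESeq2 called 0 in each population. Over all genes tested that p was reached by 4.11% in HSC, 5.18% in LMPP, 2.30% in ALP and 8.31% in BLP. The median log2 fold change of the tested genes, Mbd3del over control, was 0.01 in HSC, -0.08 in LMPP, -0.16 in ALP and -0.02 in BLP, beside 0.02, 0.01, -0.04 and -0.03 over all genes tested. Estimates were positive for 42 of 76 in HSC, 23 of 77 in LMPP, 19 of 78 in ALP and 36 of 78 in BLP. Over all genes tested 51.5%, 51.1%, 46.3% and 47.7% were positive. Such counts are not independent observations, since these genes move together between libraries. The LMPP median was 0.08 without control mouse10372 and mouse10381, 0.01 without mouse10381 alone, and 0.03 when libraries were scaled by their totals only. Without control mouse10372 the ALP median was -0.08, and without Mbd3del mouse10376 it was -0.07. The median 95% half-width of a single gene's log2 fold change was 0.54 to 0.67. A change of that size reaches an unadjusted p of only about 0.05, and a call after adjustment needs a larger one. The absence of calls therefore does not exclude changes of that size or somewhat larger.

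Rps13 and Rpl21 had the smallest p in BLP. Rps13, a small-subunit protein, was at 4.24, 10.7, 13.7, 8.66 and 5.86 CPM in Mbd3del BLP, against 27.98, 17.2, 21.3, 20.1 and 20.9 CPM in control BLP. All 5 Mbd3del libraries lay below all 5 control libraries, and the log2 fold change was -1.30 (SE 0.49, adjusted p = 0.458 by edgeR). Rpl21, a large-subunit protein with 77 copies, was at 13.6, 11.0, 20.5, 24.9 and 13.9 CPM in Mbd3del BLP and at 38.7, 33.3, 22.7, 41.7 and 25.05 CPM in control BLP. Its groups overlapped at 1 library, with a log2 fold change of -0.90 (SE 0.39, edgeR adjusted p = 0.548). All coding 50-mers of both genes are shared with other genes. Rpl22 followed, at 128, 122, 176, 149 and 164 CPM in Mbd3del BLP against 212, 207, 186, 168 and 189 CPM in control BLP, with 1 Mbd3del library inside the control range (log2 fold change -0.36, SE 0.18, edgeR adjusted p = 0.631). Rpl27a had a log2 fold change of -0.61 there (edgeR adjusted p = 0.639). The positive estimates with the smallest p in BLP were 0.21 for Rpl15 and 0.18 for Rpl22l1.

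In HSC the smallest p belonged to Rpl9 and Rpsa. Rpl9 was at 47.5, 30.6, 77.4, 32.4 and 38.0 CPM in Mbd3del HSC, against 35.9, 14.6, 15.2, 33.4 and 22.5 CPM in control HSC. The groups overlapped, with a log2 fold change of 0.80 (SE 0.39, edgeR adjusted p = 0.955). Rpsa was at 37.3, 20.5, 79.1, 21.1 and 69.1 CPM in Mbd3del HSC and at 25.2, 23.5, 30.1, 15.7 and 29.9 CPM in control HSC, so its mean rested on mouse10365 and mouse10384. In LMPP Rpl8, at 804, 775, 698, 578 and 673 CPM in Mbd3del against 579, 534, 369, 614 and 633 CPM in control libraries, had a log2 fold change of 0.27 (SE 0.16, edgeR adjusted p = 0.936). Rps27l, which in mice is induced by p53, was at 378, 413, 283, 502 and 459 CPM in Mbd3del LMPP and 346, 438, 604, 431 and 632 CPM in control LMPP. These groups overlapped (log2 fold change -0.40, SE 0.25, edgeR adjusted p = 0.936). In ALP the smallest p belonged to Rpl39, at 108, 109, 94.3, 73.4 and 108 CPM in Mbd3del against 126, 93.7, 529, 101 and 83.3 CPM in control libraries. The control library at 529 CPM was that of mouse10372, and the log2 fold change was -0.81 (SE 0.44, edgeR adjusted p = 0.9999). Rpl27a in ALP, at 50.2, 52.3, 60.4, 43.4 and 36.9 CPM in Mbd3del and 46.6, 55.0, 163, 92.4 and 42.2 CPM in control libraries, was highest in that same mouse.

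Along the lymphoid series no ribosomal protein gene was called in any step between neighbouring populations, although other genes were. In LMPP over HSC, 0 of 77 tested genes were called in Mbd3del and 0 of 77 in control mice, where 6.74% and 5.93% of all genes tested were called. In ALP over LMPP it was 0 of 77 in Mbd3del and 0 of 78 in control mice, beside 2.18% and 0.938% of all genes. In BLP over ALP it was 0 of 78 in both, beside 0.636% in Mbd3del and 0.266% in control mice. The unadjusted p was under 0.05 for 4, 1 and 3 genes in the successive Mbd3del steps and for 4, 1 and 3 genes in the control steps. Over all genes tested it was under 0.05 for 18.8%, 10.6% and 7.75% in the Mbd3del steps. In the control steps these shares were 17.5%, 7.83% and 4.35%. The gene in ALP over LMPP of control mice was Rpl3l, which passed the filter on low counts only through its ALP libraries, so its p supports nothing. With the mouse as a block, calls among the ribosomal protein genes stayed at 0 in every step, while calls among all genes went down to 154 against 242 in ALP over LMPP and to 41 against 69 in BLP over ALP of Mbd3del mice, and to 54 against 102 and 14 against 29 in control mice. DESeq2 called 1, Rpl4, in LMPP over HSC of control mice, and 0 in the other 5 steps.

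The estimates nevertheless leaned to a side in the outer steps, as they also did in Mbd3del over control in LMPP and ALP. In LMPP over HSC, 48 of 77 were positive in Mbd3del mice, with a median log2 fold change of 0.17. In control mice 67 of 77 were positive, with a median of 0.24. Over all genes tested the medians were -0.04 and -0.01, with 47.2% and 49.4% of estimates positive. In BLP over ALP, 69 of 78 were negative in Mbd3del mice, with a median of -0.21, and 69 of 78 in control mice, with a median of -0.30. There the all-gene medians were -0.03 and -0.04, with 47.5% and 46.7% of estimates positive. The middle step had medians of -0.02 in Mbd3del and 0.03 in control mice. Without control mouse10372 and mouse10381 the control medians were 0.07 in LMPP over HSC, 0.20 in ALP over LMPP and -0.22 in BLP over ALP. Sums of marker lists of other cells did not all move alike in these steps, nor did every gene of a list. The median neutrophil sum rose in LMPP over HSC and fell in BLP over ALP, in each genotype. The median T and NK sum rose in LMPP over HSC. In BLP over ALP it fell in Mbd3del and rose in control mice. The summed neutrophil markers ran from 509 to 1872 CPM in Mbd3del LMPP, against 4.32 to 1683 CPM in Mbd3del HSC, and from 166 to 779 CPM in control LMPP, against 8.34 to 188 CPM in control HSC. They ran from 132 to 489 CPM in Mbd3del BLP, against 482 to 1764 CPM in Mbd3del ALP, and from 81.8 to 241 CPM in control BLP, against 187 to 884 CPM in control ALP. Mpo carried these changes, with means of 2.82 CPM in HSC and 932 CPM in LMPP of Mbd3del mice, and 2.06 and 506 CPM in control mice. From HSC to LMPP, S100a8 went from 238 to 16.9 CPM and S100a9 from 82.5 to 3.53 CPM in Mbd3del mice. In control mice S100a8 went from 35.4 to 42.8 CPM and S100a9 from 10.3 to 10.8 CPM. The 5 T and NK cell markers summed to 279 to 866 CPM in Mbd3del LMPP, against 13.3 to 66.6 CPM in Mbd3del HSC, and to 386 to 987 CPM in control LMPP, against 24.3 to 82.0 CPM in control HSC. Nkg7 made up most of that sum, and Cd3e was at 0 in every group. Elane, on the neutrophil list, averaged at most 0.0910 CPM in any group. Whether Mpo and Nkg7 came from other cells, or such cells had a part in the medians, was not tested. The medians of these outer steps depended on single mice: for LMPP over HSC in Mbd3del mice the median was 0.05 without mouse10360, 0.06 without mouse10361, 0.26 without mouse10365 and 0.10 without mouse10376. It was 0.15 without mouse10381 in control mice. For BLP over ALP it was -0.13 without mouse10361, -0.14 without mouse10365 and -0.45 without mouse10376 in Mbd3del mice, and -0.12 without mouse10372 in control mice. All these kept their sign, as they did under every scaling tried. These genes move together between libraries, so such counts are not independent observations. The genes with under 50% of 50-mers shared gave medians of 0.18, -0.08 and -0.24 in the Mbd3del steps and 0.25, 0.07 and -0.31 in the control steps.

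**Figure D3:**
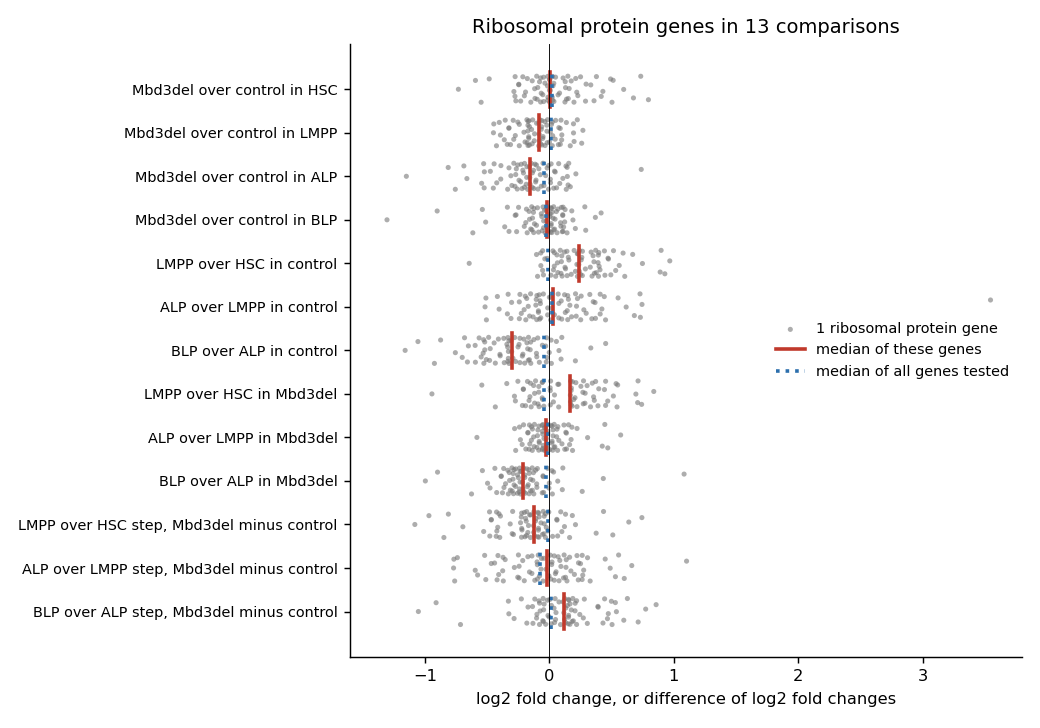
Log2 fold changes, or differences of log2 fold changes for the last 3 rows, of the tested ribosomal protein genes (grey points) in 13 comparisons. Red lines give their median and dotted blue lines the median of all genes tested. Medians were 0.17 and 0.24 in LMPP over HSC and -0.21 and -0.30 in BLP over ALP for Mbd3del and control mice. The point farthest to the right is Rpl3l in ALP over LMPP of control mice, whose fitted value depends on the prior count.

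Of the genes described for the steps, Rps25, Rpsa and Rpl3 were on the list of genes always named, and the others were chosen for their small p after their values were seen. Rpl4 was at 3849.6, 3179, 3234, 3559 and 3076 CPM in Mbd3del LMPP, against 2844, 2445, 2538, 2831 and 2655 CPM in Mbd3del HSC, without overlap. In control mice it was at 3498, 3167, 2629, 3585 and 3746 CPM in LMPP and at 2872, 2401, 2627, 2403 and 3132 CPM in HSC, with mouse10372 lowest in LMPP. The log2 fold change was 0.39 in both genotypes (SE 0.17 in Mbd3del and 0.14 in control mice), and the edgeR adjusted p was 0.234 in Mbd3del and 0.134 in control mice. DESeq2 gave an adjusted p of 0.0307 for control mice. Rps25, which some viral internal ribosome entry sites need, was at 95.6, 83.7, 72.7, 97.5 and 94.0 CPM in Mbd3del LMPP, against 61.5, 25.2, 64.1, 63.7 and 69.9 CPM in Mbd3del HSC. The groups did not overlap, and the log2 fold change was 0.71 (SE 0.28, edgeR adjusted p = 0.170). In control mice Rps25 was at 71.7, 103, 107, 82.8 and 140.2 CPM in LMPP and at 51.7, 85.5, 49.1, 57.8 and 78.7 CPM in HSC, with overlap (log2 fold change 0.75, SE 0.29, edgeR adjusted p = 0.178). Rpl27a had a negative estimate in Mbd3del mice, at 66.2, 54.4, 37.1, 63.6 and 64.4 CPM in LMPP, against 73.3, 77.3, 112, 76.2 and 97.9 CPM in HSC. These groups did not overlap either, and the log2 fold change was -0.54 (SE 0.25, edgeR adjusted p = 0.258). In control mice Rpl27a was at 43.3, 63.9, 79.8, 76.9 and 50.2 CPM in LMPP and at 64.5, 75.1, 59.3, 42.3 and 65.4 CPM in HSC, with overlap.

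In ALP over LMPP of Mbd3del mice Rpl7l1 was at 150.3, 119.6, 152, 136 and 110.0 CPM in ALP, against 227, 224, 247, 165 and 195 CPM in LMPP. All ALP libraries lay below all LMPP libraries, with a log2 fold change of -0.58 (SE 0.19, edgeR adjusted p = 0.173). In BLP over ALP, Rpl14 was at 169, 133, 157, 205 and 140.0 CPM in Mbd3del BLP and at 248, 227, 242, 216 and 209 CPM in Mbd3del ALP, again without overlap (log2 fold change -0.44, SE 0.19, edgeR adjusted p = 0.609). Rpl3, which lies at the peptidyl transferase centre, was at 59.1, 70.8, 80.3, 75.5 and 47.2 CPM in Mbd3del BLP, against 94.6, 105, 103, 96.7 and 103.9 CPM in Mbd3del ALP (log2 fold change -0.54, SE 0.23, edgeR adjusted p = 0.566). In control mice the smallest p of that step belonged to Rpsa and Rps21. Rpsa was at 30.4, 25.5, 16.3, 23.0 and 18.9 CPM in control BLP and 31.8, 41.8, 154, 24.1 and 29.2 CPM in control ALP. Rps21 was at 61.8, 56.5, 29.8, 49.3 and 49.5 CPM in control BLP and 73.7, 47.1, 312, 67.4 and 61.6 CPM in control ALP. The value far above the others was that of mouse10372 in both cases, and the log2 fold changes of -1.16 and -1.06 rested on it.

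Whether the steps differed between genotypes was tested as an interaction, Mbd3del minus control. For LMPP over HSC, ALP over LMPP and BLP over ALP, 0 of 78 ribosomal protein genes were called in each, as were 0% of all genes tested. An unadjusted p under 0.05 was reached by 0 of the 78 in each, and DESeq2 called 0. Over all genes tested that p was reached by 5.13%, 4.51% and 4.03%. The medians of the differences were -0.13, -0.02 and 0.12 on the log2 scale, beside -0.01, -0.08 and 0.01 over all genes. The smallest p belonged to Rpl27a at -0.69, Rpl8 at -0.52 and Rps13 at -1.05, with edgeR adjusted p of 0.9998, 0.999 and 0.99997.

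Over the whole series, BLP over HSC, a comparison added after seeing the data, 3 ribosomal protein genes were called in Mbd3del mice and 0 in control mice. The 3 were 2 of 77 tested genes that were higher in BLP, Rpl3l and Rps27l, and 1 that was lower, Rpl27a. Rpl3l passed the filter on low counts only through its BLP libraries, so its call supports nothing, and its values are given as a description. In this comparison, 19.3% of all genes tested were called, 9.48% higher and 9.83% lower. In control mice it was 0 of 78, beside 15.7% of all genes. There 4 had an unadjusted p under 0.05, beside 27.3% of all genes, and 2 were called by DESeq2 (Rpl15 and Rpl3l). There too Rpl3l, 1 of the 4, passed the filter only through its BLP libraries, so its p and its DESeq2 call support nothing. The difference between genotypes was called for 0 of 79, beside 0.0472% of all genes.

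Rpl3l, the Rpl3 paralogue known from heart and skeletal muscle in mice and humans, was at or near 0 in most HSC and LMPP libraries and present in every BLP library. Its coding start differs from that of Rpl3 (chr15:80077791-80091868, minus strand) at 13 of 60 bases, in capitals.
Rpl3: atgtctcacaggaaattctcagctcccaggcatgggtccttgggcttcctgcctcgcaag
Rpl3l: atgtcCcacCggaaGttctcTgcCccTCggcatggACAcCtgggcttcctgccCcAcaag
None of the coding 50-mers of Rpl3l (chr17:24727820-24736143, plus strand) occurs in another gene, against 95.7% for Rpl3, and no other annotated exon overlaps it. In Mbd3del mice Rpl3l was at 0, 0, 0, 0.205 and 0.180 CPM in HSC, at 0, 0, 0.179, 0.917 and 0 CPM in LMPP, at 0.418, 0, 9.06, 1.87 and 8.92 CPM in ALP and at 5.46, 7.61, 6.37, 7.44 and 15.6 CPM in BLP. Every Mbd3del BLP library lay above every Mbd3del HSC and LMPP library. In control mice it was at 1.40, 5.46, 0, 0.178 and 0 CPM in HSC, at 0, 3.61, 0.154, 0 and 0 CPM in LMPP, at 12.996, 5.63, 8.33, 8.26 and 12.3 CPM in ALP and at 14.5, 8.96, 11.9, 19.9 and 6.68 CPM in BLP. Control ALP and BLP libraries all lay above the control HSC and LMPP libraries, of which mouse10358 had the highest values.

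Summed over the libraries of a group, Rpl3l had 258 counts in Mbd3del BLP against 2 in Mbd3del HSC, a ratio of CPM of 111. The 95% exact interval of 30.5 to 923 covers counting error only and takes reads as independent. Differences between mice and repeated reads of an amplified molecule are outside it, so these ratios are a description. In control mice it had 430 counts in BLP against 45 in HSC, a ratio of 8.03 with an interval of 5.90 to 11.2. Control mouse10358 held most of the counts in control HSC: without it the control ratio was 37.8, from 355 counts in BLP against 8 in HSC, with an interval of 19.0 to 88.1. Without mouse10380 it was 5.47. The fitted fold changes depend on the prior count at such levels and are not given. The difference of the BLP over HSC changes between genotypes was not called (edgeR adjusted p = 0.609). With HSC counts this low, that result settles nothing about a difference. The mean level over all libraries was 2.81 CPM per kb for Rpl3l and 30.5 CPM per kb for Rpl3.

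**Figure D4:**
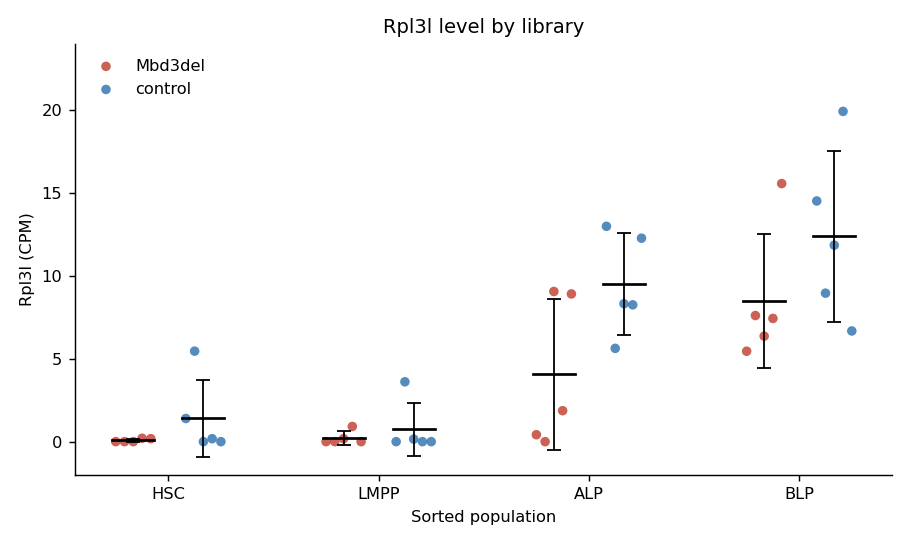
Rpl3l in CPM (vertical axis) in each library, by sorted population, with Mbd3del (red) left of control (blue); bars give the mean and SD of 5 libraries. All BLP libraries lie at 5.46 CPM or above, and Mbd3del HSC libraries at 0.205 CPM or below.

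Rps27l was at 458, 377, 419.5, 680.4 and 529 CPM in Mbd3del BLP, against 309, 282, 307, 425 and 269 CPM in Mbd3del HSC, and 1 HSC library, that of mouse10376, lay inside the BLP range. It rose by 0.83 on the log2 scale (SE 0.24, edgeR adjusted p = 0.0263), and the call was lost without mouse10360, mouse10365 or mouse10384, at adjusted p of 0.0773, 0.0592 and 0.116. In control mice the log2 fold change was 0.52 (SE 0.25, edgeR adjusted p = 0.198). Rpl27a, a large-subunit protein, was at 40.3, 42.3, 48.0, 17.9 and 31.9 CPM in Mbd3del BLP, against 73.3, 77.3, 112, 76.2 and 97.9 CPM in Mbd3del HSC, without overlap. Its log2 fold change was -1.08 (SE 0.29, edgeR adjusted p = 0.0154), and without mouse10384 the adjusted p was 0.0631. All of the Rpl27a 50-mers are shared with other genes. In control mice Rpl15 was at 83.5, 87.0, 63.1, 111 and 83.2 CPM in BLP against 203, 200.04, 105, 127 and 117 CPM in HSC, with 1 overlapping library, and a log2 fold change of -0.73 (SE 0.25, edgeR adjusted p = 0.0667). The median log2 fold change of the tested genes was -0.11 in Mbd3del and -0.04 in control mice, beside -0.11 and -0.01 over all genes. With scaling by library totals only, the Mbd3del median was -0.34 and 8 ribosomal protein genes were called. The share of all genes called under that scaling is not given here.

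The ribosomal protein genes varied together from library to library within groups. Each library's deviation from its group mean was taken on the scale of log2(CPM + 1) for the 51 genes with a mean of at least 50 CPM. Over the 40 libraries the median pairwise correlation of these deviations was 0.59, and 91.2% of pairs were positive. For 4375 other protein-coding genes of that level the median was 0.02 with 52.1% of pairs positive, for 70 mitochondrial ribosomal protein genes 0.28 and for 18 translation factors and other known TOP mRNAs 0.20. All pairs share the same libraries, depth and scaling. Rpl32 and Rps18 followed the other members closely, with SDs of 0.09 and 0.10 around the median of the others on the log2 scale. The 5 that departed most were Rpl7l1 (0.42), Rps7 (0.40), Rpl27a (0.39), Rps21 (0.39) and Rpl35 (0.37). Rpl7l1 had a correlation of -0.20 with the median of the other members, whereas Rps21 kept 0.86 and moved in the same direction by more.

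Among the 40 libraries the control ALP library of mouse10372 stood farthest above its group. The 26 genes with a coding length under 450 bases deviated there by a median of 0.76, and the 25 longer ones by 0.27. The 99 other protein-coding genes with under 1000 bases of exon deviated by -0.15. In Mbd3del HSC, mouse10365 and mouse10384 deviated by 0.31 and 0.34 for the short and 0.26 and 0.30 for the longer ribosomal protein genes, with 0.00 and 0.04 for the other short genes. In Mbd3del LMPP of mouse10365 and Mbd3del ALP of mouse10376 the short ribosomal protein genes, at -0.56 and -0.39, and the other short genes, at -0.52 and -0.55, were both low. The part of depth, RNA quality or transcript length in these deviations was not tested.

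**Figure D5:**
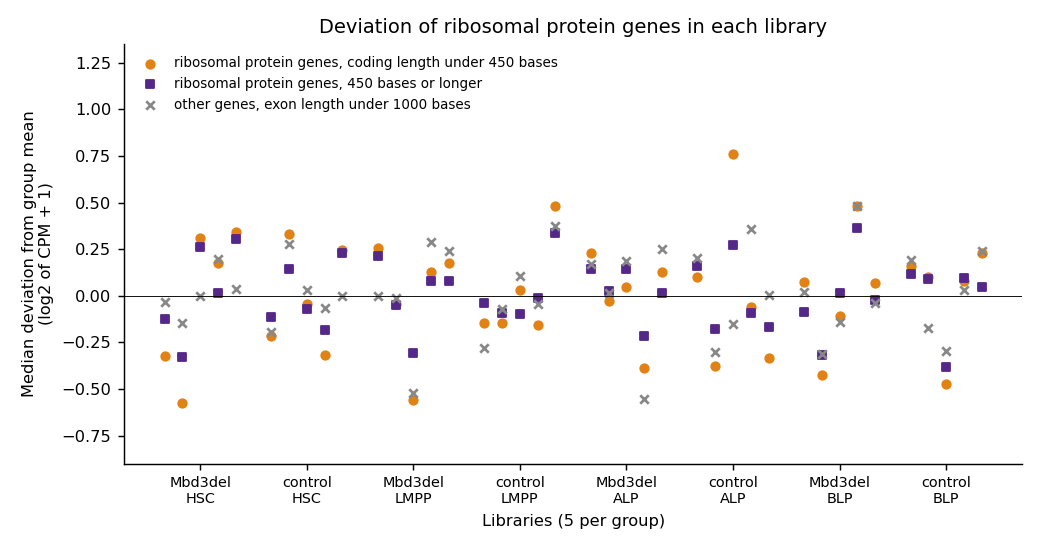
Median deviation from the group mean in log2(CPM + 1) (vertical axis) for each of 40 libraries, ordered by group with Mbd3del left of control. Circles are 26 short and squares 25 longer ribosomal protein genes, and crosses 99 other short genes; circles and squares lie close in most libraries, and the highest circle, 0.76, is the control ALP library of mouse10372.

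Because these genes moved together, their start sites were compared. RefSeq windows from 250 bases before to 50 after the start were matched for 63 of the 83 genes on GRCm38.p6, with 1 window per gene. The letters CTTTC, a pyrimidine run of the TOP kind, occurred on the gene's strand within 15 bases of the start in 25.4% of them, against 3.97% of 27025 genes. In the whole window, on either strand, CCGGAAG, which is contained in ETS-type sites, occurred in 39.7% against 9.12% of genes, TTTCCG in 39.7% against 8.99%, and both in 17.5% against 1.88%. TATAAA occurred in 9.52% against 14.2%. CTTTC and TTTCCG can overlap by 4 letters, and TTTCCG and CCGGAAG by 3. The 30 bases around the start of 4 genes with CTTTC there, in capitals, and of Rpl4, the highest gene, which has none, are shown 5′ to 3′ on the gene's strand.
Rps27: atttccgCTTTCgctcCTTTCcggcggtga
Rpl13a: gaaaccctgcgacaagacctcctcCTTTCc
Rpl38: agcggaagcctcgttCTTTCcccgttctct
Rplp2: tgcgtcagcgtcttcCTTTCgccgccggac
Rpl4: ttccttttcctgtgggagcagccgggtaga
They lie at chr3:90213634-90213663 for Rps27, chr7:45128731-45128760 for Rpl13a (both minus strand), chr11:114668565-114668594 for Rpl38, chr7:141447636-141447665 for Rplp2 and chr9:64173372-64173401 for Rpl4 (plus strand). A match describes letters in a window and is not a measured site.

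Genes that build or regulate the ribosome were read from fixed lists for comparison. Of 49 ribosome biogenesis genes tested in LMPP over HSC, 1 was called higher in Mbd3del mice and 3 in control mice, where 6.74% and 5.93% of all genes tested were called; the shares of the list were below the first and near the second. The medians were 0.42 in Mbd3del and 0.57 in control mice. Dkc1, the pseudouridine synthase of box H/ACA particles, averaged 576 ± 129 CPM in Mbd3del LMPP and 305 ± 84.6 CPM in Mbd3del HSC (SD, n = 5 each), and rose by 0.95 (SE 0.25, edgeR adjusted p = 0.0291). In control mice Dkc1 rose by 0.64 (SE 0.17, edgeR adjusted p = 0.0473), and Nhp2, of the same particles, by 0.93 (adjusted p = 0.0366). Pno1, an assembly factor of the small subunit, rose by 1.15 in control mice (SE 0.26, edgeR adjusted p = 0.0195). In the other 4 neighbouring steps and in all 4 genotype comparisons 0 of the list were called.

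In BLP over HSC of control mice 4 of 48 biogenesis genes tested were called, all higher, a smaller share than the 15.7% of all genes called there. They were Nolc1, Nop56, Nmd3 and Dkc1, with log2 fold changes of 1.21, 0.81, 0.66 and 0.86. In Mbd3del mice 1 of 49 was called, beside 19.3% of all genes, and it was lower: Polr1a, the largest subunit of RNA polymerase I, with a log2 fold change of -1.56 (SE 0.50, edgeR adjusted p = 0.0400). Among regulators of translation of ribosomal protein mRNAs, 2 of 15 tested were called in Mbd3del mice and 1 of 14 in control mice, again beside 19.3% and 15.7% of all genes. Eif4ebp1, which restrains cap-dependent translation until mTOR phosphorylates it, fell in both genotypes. It averaged 63.2 ± 16.4 CPM in Mbd3del BLP against 186 ± 28.4 CPM in Mbd3del HSC, and 84.2 ± 29.1 CPM in control BLP against 219 ± 58.7 CPM in control HSC (SD, n = 5 each). The log2 fold changes were -1.37 (edgeR adjusted p = 0.00106) in Mbd3del and -1.30 (adjusted p = 0.00309) in control mice. Rheb, which activates mTOR, rose by 0.80 in Mbd3del mice (edgeR adjusted p = 0.0355). Of 77 mitochondrial ribosomal protein genes tested, 3 were called in Mbd3del and 1 in control mice, both smaller shares than over all genes. Mrpl52 fell in both genotypes, by 1.17 in Mbd3del and by 1.36 in control mice, and Mrpl28 and Mrpl18 rose in Mbd3del mice by 0.72 and 1.09. None of the 20 translation factors and other TOP mRNAs, of the 5 tested ribosomal proteins outside the naming rule or of the tested mitochondrially encoded genes was called in any of the 13 comparisons or in BLP over HSC.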

How the data were processed

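The values are read counts per gene, deposited by the authors as 1 table of 40 libraries. Per the submitters' processing notes, STAR 2.5.2b, HTSeq 0.6.1p1 and GRCm38 were used; the sources used here give no annotation release, strand setting or treatment of multiply aligned reads. Of 128910 rows, 49585 were genes; 79325 repeat-region rows, 0.205% to 2.28% of counts, were left out. All 83 genes were chosen, and the lists fixed, with earlier results of these data known. Genes were filtered with filterByExpr (minimum count 10, total 15), scaled by TMM and tested with edgeR 4.0.16 in R 4.3.3 within the libraries of each comparison, with Benjamini-Hochberg adjustment and a threshold of 0.05. DESeq2 1.42.0 was an alternative. The procedure was tested on simulated data. CPM used the total of gene counts. Copies were found with blastn 2.17.0.

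Named were the genes with the smallest p (up to 4 a direction) in genotype and interaction comparisons, called genes in steps (none was called between neighbouring populations, so genes described there were chosen for a small p after their values were seen, apart from those always named), the extremes of level, a set of paralogues and well-known members, and called list genes. The BLP over HSC comparisons and their interaction were added after seeing the data. All 4 populations came from the same mice, so steps could be paired; correlations of deviations between libraries of a mouse ran from -0.301 to 0.438 (median 0.0968), and 19 of 40 exceeded 0.1. The intervals of the pooled Rpl3l ratios cover counting error only. The half-widths of log2 fold changes come from the quasi-likelihood SE, which includes variation between libraries. Alternatives were other scalings, filters, all libraries in 1 fit, the mouse as a block, control mouse10372 and mouse10381 left out together, and each mouse left out. The results of 1 gene are not reported here.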

Additional observations from a re-analysis of the deposited data

Results flagged for a closer look

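In groups of 5 libraries, 12 of 76 groups of values held a library far from the other 4. Chance gives about 1 in 20 only for independent, unselected groups of normally distributed values. Here many genes had been chosen for a small p, several groups share a library, and Rpl3l is near 0 in HSC and LMPP. The 12 therefore cannot be set against that rate. For the summed share of gene counts, mouse10381 stood at 2.84% in control LMPP, with the others at 2.04% to 2.18%, and mouse10372 at 1.48% in control BLP, with the others at 1.95% to 1.998%. For Rpl3l, mouse10376 had 0.917 CPM in Mbd3del LMPP, where the others had at most 0.179 CPM, and mouse10384 had 15.6 CPM in Mbd3del BLP, where the others had 5.46 to 7.61 CPM. Control mouse10358 had 5.46 CPM of Rpl3l in HSC and 3.61 CPM in LMPP, where the others had at most 1.40 and 0.154 CPM. In the control ALP library of mouse10372, Rpl39 was at 529 CPM (others 83.3 to 126), Rpsa at 154 CPM (24.1 to 41.8), Rpl14 at 468 CPM (206 to 274) and Rps21 at 312 CPM (47.1 to 73.7). Rps27l was at 425 CPM in the Mbd3del HSC library of mouse10376 (others 269 to 309). Rps25 was at 25.2 CPM in the Mbd3del HSC library of mouse10361 (others 61.5 to 69.9).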

How the results depend on the processing

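The count of called ribosomal protein genes stayed within 1.5 times its main value in 118 of 120 alternatives that left out 1 mouse and in 131 of 136 others. The others include fits without control mouse10372 and mouse10381. The exceptions were LMPP over HSC of control mice, with 1 call by DESeq2 against 0, BLP over HSC of control mice, with 1 by library totals only, 2 by DESeq2 and 1 with all 40 libraries in 1 fit, against 0, and BLP over HSC of Mbd3del mice, with 8 by library totals only against 3. With 1 mouse left out these counts ran from 0 to 1 in control mice (1 without mouse10358) and from 1 to 3 in Mbd3del mice (1 without mouse10384). Rpl3l, which passed the filter only through its BLP libraries, is among the 3 calls of Mbd3del mice and the 2 by DESeq2 of control mice. The log2 fold change of Rpl7l1, Mbd3del over control in LMPP, was 0.22 with all mice and -0.039 without control mouse10372 and mouse10381; the cause was not tested. With the mouse as a replicate block, the 3 calls in BLP over HSC of Mbd3del mice and the 0 in all other steps were unchanged in number, and calls among all genes for the BLP over HSC interaction numbered 1 against 6. No paired analysis was possible because the genotypes compared are different mice for Mbd3del over control. All medians and shares moved by less than 1 SD between libraries, which is a wide limit. Leaving out 1 of 5 libraries cannot move their mean by 1 SD, so for the shares that check could not fail. Medians could change sign within the limit. With 1 mouse left out, the median for Mbd3del over control in BLP ran from -0.16 to 0.07. Library depth limits genes near the floor of 3 counts.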
